A study of Mus musculus with 4 samples.

Results

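The cells described are the epiblast-class cells of a mouse embryo library at E5.5, set against the endoderm-class and trophoblast-class cells of the same library. Cells with at least 1000 unique molecule counts (UMIs) were classed by the summed UMIs of 3 marker sets. The epiblast set was Tdgf1, Sox2, Nanog, Fgf4, Utf1, Pou3f1 and Slc7a3. The endoderm set was Sparc, Col4a1, Lamb1, Srgn, Gata4, Sox17, Cubn and Amn, and the trophoblast set was Gata2, Gata3, Tspan8, Dppa1, Rhox6, Rhox9, Cdx2, Hand1, Ascl2 and Elf5. A cell took the lineage whose set had at least 3 UMIs and at least 60% of the UMIs of all 3 sets. The rule gave 2759 epiblast cells, 3155 endoderm cells and 2152 trophoblast cells, and left 1494 of the 9560 cells with no lineage, 1481 of them because no set reached 60%. Epiblast cells were 34.2% of the cells given a lineage (exact 95% interval 33.2 to 35.3%) and 28.9% of the library (28.0 to 29.8%). These intervals cover counting error only, and not the choice of rule or the spread between embryos. The whole series held 14529 cell barcodes in 4 libraries. The cells were thus chosen by measured values, the UMIs of these 25 genes, and so every difference between the classes is given as a description, with no test.

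The epiblast is the pluripotent tissue of the embryo from which all fetal germ layers and the germ line arise. After implantation it forms an epithelium around a central cavity, moves from a naive to a formative state as genome-wide DNA methylation is re-established, and exchanges Nodal, FGF, BMP and WNT signals with its neighbours. Those neighbours are the visceral endoderm, an absorptive epithelium that surrounds it, and the trophoblast-derived extraembryonic ectoderm and ectoplacental cone.

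The library was made from 50 pooled wildtype embryos of the strain B6C3F1/J, taken out of the implantation sites with forceps in PBS and dissociated whole with TrypLE express, and captured on the BD Rhapsody microwell system. The 3 other libraries, labelled EDG7.5, EDG9.5 and Reactivated (EDG9.5 with 30 h of E2), came from flushed embryos of the same strain and genotype, and the series title places them in a study of embryonic diapause and the time around implantation. Each stage had 1 library of pooled embryos, so no value here has a replicate check. The same marker rule found 491, 592 and 206 epiblast cells in EDG7.5, EDG9.5 and Reactivated.

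The E5.5 library held 87507141 UMIs, with a median of 8800.5 per cell and a lowest value of 1593, so the minimum of 1000 removed no cell. Epiblast, endoderm and trophoblast cells had medians of 8676, 8891 and 9049 UMIs and of 3275, 3399 and 3294.5 detected genes. Mitochondrially encoded genes took a median of 5.46%, 6.66% and 3.89% of the UMIs in the same order. E5.5 shared 23 barcodes with EDG7.5, 27 with EDG9.5 and 8 with Reactivated. Scrublet called 279 cells doublets, of which 37 were epiblast, 154 endoderm and 28 trophoblast cells; they were kept. RNA free in the suspension was gauged from genes abundant in 1 neighbour, picked with these data known. The 10 endoderm genes, such as Ttr, Apoa1 and Cubn, stood in epiblast cells at 0.353% to 1.74% of their endoderm level. The 7 trophoblast genes, such as Prl3d1, Plac1 and Gata2, stood there at 0.335% to 1.72% of their trophoblast level, and in endoderm cells at 1.06% to 5.56%. Cubn and Gata2 are marker genes of the rule, which itself limits them in epiblast cells, so they cannot gauge free RNA. Cubn gave the lowest endoderm value, and Apom, outside the rule, stood at 0.459%. The whole endoderm marker set of the rule summed to 274 CPM in epiblast and 11255 in endoderm cells, and the trophoblast set to 74.3 CPM in epiblast and 4637 in trophoblast cells.

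Levels below are in CPM, the share of all UMIs summed over the cells of a class, scaled to 1000000, and not amounts per cell. The sums held 24335129 UMIs in epiblast, 29323865 in endoderm and 20560893 in trophoblast cells. Intervals are exact 95% Poisson intervals for levels and exact conditional binomial intervals for ratios, and cover counting error only. Log2 ratios add 10 CPM to both sides, which understates the difference of low genes, and a gene is counted as different when that ratio is at least 2-fold. Of 9401 genes outside the marker sets with at least 10 CPM in at least 1 class, 761 (8.09%) were at least 2-fold higher in epiblast than in endoderm and 1333 (14.2%) were lower. Against trophoblast, 868 (9.23%) were higher and 774 (8.23%) were lower. Against both at once, 475 genes (5.05%) were higher and 327 (3.48%) were lower. With trimmed mean of M-values (TMM) scaling in place of total UMIs, which moved the median gene by -0.16 against endoderm and -0.12 against trophoblast, the counts were 384 higher and 410 lower. The median log2 ratio over all genes was 0.05 against endoderm and 0.03 against trophoblast. These shares are the background for the gene groups below.

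**Figure D1:**
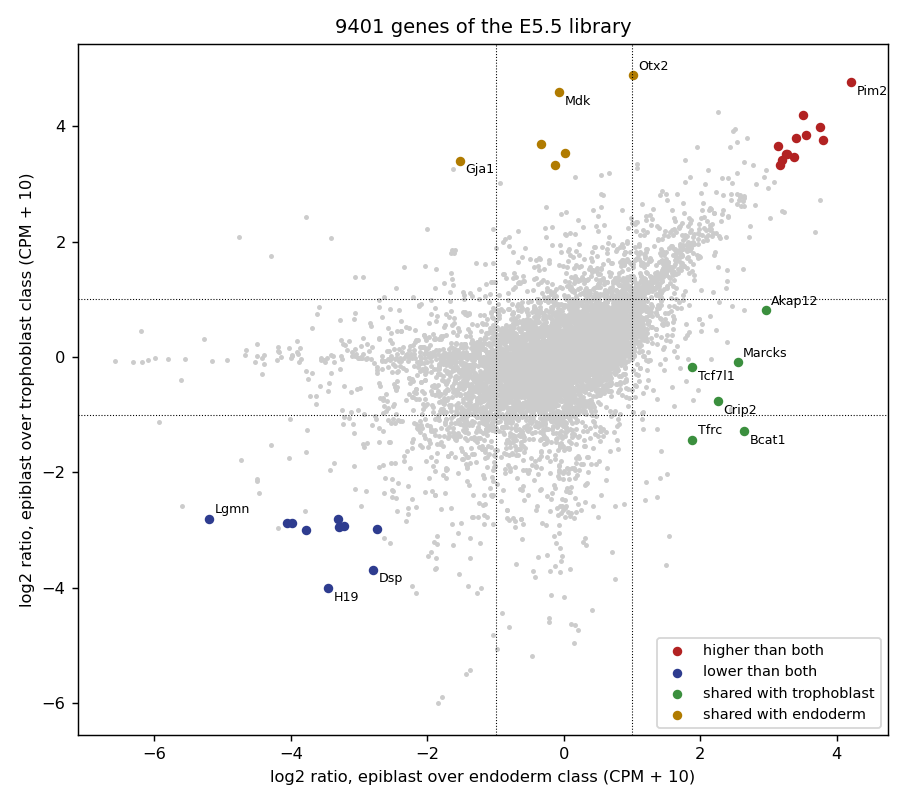
Each point is 1 of 9401 genes, placed by its log2 ratio (10 CPM added) of epiblast over endoderm on the horizontal axis and of epiblast over trophoblast on the vertical axis; dotted lines mark 2-fold, coloured points are the genes named by rule, and some of these are labelled. Pim2 lies farthest into the upper right corner, at 4.21 and 4.76, and H19 into the lower left, at -3.46 and -4.01.

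The label was set beside genes that the rule did not use. These marker lists, here and for the neighbouring tissues, were chosen with earlier results of these data known. They are therefore no independent check. Of 8 epiblast markers outside the rule, 6 were at least 2-fold higher in epiblast cells than in both other classes. Pou5f1, which encodes the pluripotency factor OCT4, stood at 141 CPM (136 to 146) in epiblast, 4.33 in endoderm and 0.827 in trophoblast. It had at least 1 UMI in 67.5% of epiblast cells, 3.04% of endoderm cells and 0.743% of trophoblast cells. Dnmt3b, the de novo DNA methyltransferase, stood at 3105, 566 and 240 CPM in the same order, and Foxd3, a forkhead factor of pluripotent cells, at 71.7, 1.57 and 0.195 CPM. L1td1, an RNA-binding protein of pluripotent cells, stood at 511, 150 and 127 CPM. The other members gave a divided picture. Fgf5, a growth factor often used to mark the postimplantation epiblast, was as high in endoderm cells (126 CPM) as in epiblast cells (127 CPM) and was 1.80 CPM in trophoblast cells. Tcf15, a factor of cells leaving naive pluripotency, was low throughout at 12.5, 2.52 and 0.389 CPM.

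Markers of the neighbouring tissues were low in epiblast cells. The 11 endoderm markers outside the rule summed to 161 CPM in epiblast, 148 in trophoblast and 9301 in endoderm cells, and all 11 were at least 2-fold lower in epiblast than in endoderm. The 10 trophoblast markers outside the rule summed to 211 CPM in epiblast, 674 in endoderm and 3654 in trophoblast cells, and 8 of the 10 were at least 2-fold lower in epiblast than in trophoblast. The other 2, Bmp4 and Esrrb, were low in the trophoblast class itself, at 24.2 and 35.4 CPM. Both were high in the cells given no lineage, at 149 and 241 CPM.

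The cells with no lineage bear on 2 of the epiblast marker genes. They carried Utf1, a chromatin-associated factor of pluripotent cells, at 813 CPM and Pou3f1, a POU-domain factor, at 434 CPM. The same cells held Tdgf1 at 9.86 CPM, Slc7a3 at 18.7 CPM and Pou5f1 at 3.99 CPM. They also held the trophoblast stem cell genes Elf5 at 591 CPM, Eomes at 760 CPM and Cdx2 at 96.5 CPM. Utf1 and Pou3f1 were therefore not limited to epiblast cells in this library, and the trophoblast class that the rule forms leaves out many Elf5-positive cells.

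The values that chose the epiblast cells were as follows. Tdgf1, the Nodal co-receptor Cripto, stood at 354 CPM in epiblast, 7.84 in endoderm and 1.99 in trophoblast cells. Slc7a3, a cationic amino acid transporter, stood at 436, 10.8 and 7.25 CPM, and Sox2, the HMG-box partner of OCT4, at 117, 4.02 and 7.49 CPM. Fgf4, the main FGF ligand of pluripotent cells, stood at 79.3, 1.53 and 0.730 CPM. Nanog was the lowest of the set in epiblast cells, at 29.0 CPM against 3.85 and 3.21. Utf1 stood at 1381, 277 and 385 CPM and Pou3f1 at 345, 13.1 and 83.6 CPM.

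Each of the 7 genes was also measured in classes formed without it. The trophoblast level of Utf1 then became 511 CPM and that of Pou3f1 149 CPM, as 824 and 381 cells without a lineage joined the trophoblast class. Leaving Utf1 out also moved 287 epiblast cells to no lineage, 14 to trophoblast and 5 to endoderm. For Tdgf1, Fgf4, Nanog and Slc7a3 the levels hardly moved: Tdgf1 read 353, 8.72 and 2.86 CPM in epiblast, endoderm and trophoblast cells. With both Utf1 and Pou3f1 left out, an alternative chosen after the data were seen, 2218 epiblast cells remained and the trophoblast class grew to 3476 cells, 1263 of which had no lineage before. In those classes Pou3f1 stood at 339 CPM in epiblast and 222 in trophoblast cells, a log2 ratio of 0.59, which is under 2-fold. Sox2 stood at 123 and 29.6 CPM there. The counts of genes higher and lower in epiblast than in both classes were then 463 and 368.

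The threshold of 60% runs through a band of cells of mixed character. The 119 cells with an epiblast share of 55 to 60%, just outside, held Tdgf1 at 15.1 CPM, Pou5f1 at 10.0, Elf5 at 430 and Eomes at 786. The 78 cells of 60 to 65%, just inside, held Tdgf1 at 53.1 CPM, Pou5f1 at 34.3, Elf5 at 365 and Eomes at 668. Trophoblast genes were thus high on both sides of the line. At shares of 90 to 100%, with 1434 cells, the same genes stood at 387, 145, 1.89 and 35.7 CPM. Tdgf1 and Elf5 are marker genes that enter the share, so their course along it is partly set by the rule. Pou5f1 and Eomes do not enter it. Most epiblast cells, 2423 of 2759, had a share of at least 80%.

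**Figure D2:**
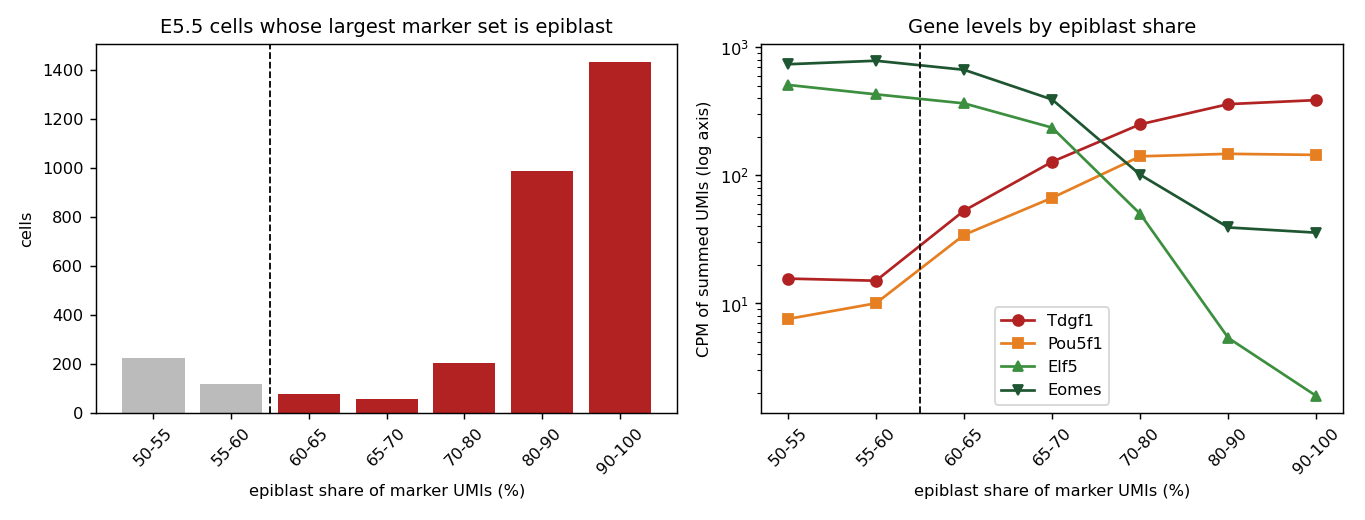
Left, the number of cells by the epiblast share of marker UMIs (percent), with the epiblast class in red and cells below the threshold (dashed line) in grey; right, the level of 4 genes in the summed UMIs of each bin, in CPM on a log axis. Elf5 and Eomes fall from 365 and 668 CPM at 60 to 65% to 1.89 and 35.7 CPM at 90 to 100%, while Tdgf1 climbs from 53.1 to 387 CPM. Elf5 and Tdgf1 enter the share on the axis, and Eomes and Pou5f1 do not.

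The 12 genes that stood highest above both other classes were Pim2, Ifitm2, Ina, Mid1ip1, Rragd, Pou5f1, Gng3, Uchl1, Ifitm3, Pla2g1b, Pdzd4 and Phc1. The ranking used the smaller of both log2 ratios, with 10 CPM added. Pim2, a serine/threonine kinase of cell survival, led with 852 CPM (841 to 864) in epiblast, 36.7 in endoderm and 21.7 in trophoblast cells. It was 23.2-fold (21.8 to 24.7) above endoderm and 39.2-fold (35.7 to 43.1) above trophoblast, and had a UMI in 94.6% of epiblast cells against 19.4% and 15.8%. Without added CPM, genes of lower level could have larger ratios. For Pou5f1 the intervals were 27.2 to 39.1-fold above endoderm and 106 to 293-fold above trophoblast. Unlike Utf1 and Pou3f1, Pim2 was low in the cells with no lineage, at 42.0 CPM. Phc1, a subunit of Polycomb repressive complex 1, stood at 226 CPM in epiblast cells (220 to 232), 16.8 in endoderm and 8.51 in trophoblast cells.

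Several of these genes are better known from neurons. Ina encodes the neuronal intermediate filament protein alpha-internexin and stood at 197 CPM (191 to 202), 5.29 and 3.02 in epiblast, endoderm and trophoblast cells. Gng3, a G-protein gamma subunit, stood at 131, 3.68 and 2.67 CPM. Uchl1, a ubiquitin hydrolase abundant in neurons, stood at 121, 3.65 and 1.41 CPM. All 3 were detected in most epiblast cells, with a UMI in 74.0%, 62.1% and 60% of them.

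Others belong to metabolism and the cell surface. Rragd, a Rag GTPase that signals amino acid supply to mTORC1, stood at 213 CPM in epiblast, 9.62 in endoderm and 2.19 in trophoblast cells. Mid1ip1, a regulator of acetyl-CoA carboxylase, stood at 150, 3.75 and 1.07 CPM. Pla2g1b, a secreted phospholipase, stood at 105, 2.52 and 0.778 CPM, and Pdzd4, a PDZ-domain protein, at 103, 2.59 and 1.17 CPM. Ifitm2 and Ifitm3 encode interferon-induced transmembrane proteins. Ifitm2 stood at 204, 5.42 and 5.74 CPM and Ifitm3 at 117, 3.27 and 1.07 CPM; the family members are close in sequence and how reads were shared among them by the counting is not given in the sources used here.

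Base sequences before the start of these genes were searched for the octamer bound by POU factors (ATGCAAAT and its reverse complement ATTTGCAT) and a core SOX motif (ACAAAG and CTTTGT). Sequences are the 250 bases before the transcription start in the RefSeq promoter table, build GRCm38.p6; all 12 genes had an entry, as did Tdgf1, Sox2, Nanog, Fgf4, Utf1, Dnmt3b and Foxd3. Pim2 held the octamer at 2 places, beginning 123 and 202 bases before the start, and no other of these 19 sequences held it. Over all 27025 promoters of the table the same window held it in 435 (1.61%). Sox2 held the only SOX motif, 206 bases before its start, and 16.5% of all promoters held that motif. Pim2 is shown as the first of the 12 genes in the ranking. Sox2 is shown for its motif, and Pou5f1 as a gene with neither match. Capitals mark the matches. The windows are chrX:7878056-7878305 for Pim2, chr3:34649745-34649994 for Sox2 and chr17:35505782-35506031 for Pou5f1, all on the plus strand, upstream of the annotated transcript.

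Pim2: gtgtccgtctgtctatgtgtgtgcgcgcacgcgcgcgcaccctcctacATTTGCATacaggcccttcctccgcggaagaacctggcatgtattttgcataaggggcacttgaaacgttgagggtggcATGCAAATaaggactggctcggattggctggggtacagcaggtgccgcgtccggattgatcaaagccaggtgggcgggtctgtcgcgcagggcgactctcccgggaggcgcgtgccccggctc
Sox2: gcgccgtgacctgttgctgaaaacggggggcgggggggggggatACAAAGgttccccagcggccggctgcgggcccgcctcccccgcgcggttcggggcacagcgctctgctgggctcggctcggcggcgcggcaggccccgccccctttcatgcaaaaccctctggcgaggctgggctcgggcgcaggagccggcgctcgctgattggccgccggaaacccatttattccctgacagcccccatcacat
Pou5f1: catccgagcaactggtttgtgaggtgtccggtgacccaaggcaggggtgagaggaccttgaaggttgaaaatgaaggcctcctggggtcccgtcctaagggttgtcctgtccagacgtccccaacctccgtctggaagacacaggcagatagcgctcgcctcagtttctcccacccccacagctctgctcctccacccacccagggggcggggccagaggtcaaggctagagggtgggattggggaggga

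A match is a run of letters and was not tested as a binding site.

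The 10 genes that stood lowest below both classes were H19, Nid1, Lcp1, Cd63, Tfpi, Tmem37, Fabp3, Lgmn, Dsp and H2afy. H19, an imprinted long non-coding RNA, stood at 556 CPM (546 to 565) in epiblast, 6196 in endoderm and 9073 in trophoblast cells. Its UMIs were concentrated in a small fraction of the epiblast class. The 134 cells with a marker share of 60 to 70%, 4.86% of the class, held 55.2% of its H19 UMIs, and the 2423 cells of at least 80% stood at 186 CPM. The low level in epiblast cells was thus lower still in those with the purest marker profile.

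The remaining genes have varied roles. Lgmn, the lysosomal protease legumain, stood at 21.4 CPM in epiblast, 1147 in endoderm and 209 in trophoblast cells. Cd63, a tetraspanin of late endosomes, stood at 128, 1276 and 1050 CPM. Dsp, the desmosomal protein desmoplakin, stood at 6.21, 102 and 199 CPM. H2afy encodes the histone variant macroH2A1, known for its place on the inactive X chromosome, and stood at 31, 263 and 316 CPM. It had a UMI in 19% of epiblast cells and in 86.1% and 90% of endoderm and trophoblast cells. Nid1, a linker of basement membranes, stood at 10.6, 273 and 155 CPM, and Lcp1, an actin-bundling plastin, at 11.3, 199 and 153 CPM. Fabp3, a fatty acid carrier, stood at 8.38, 172 and 119 CPM. In the cells of at least 80% marker share the epiblast levels were 2.43 CPM for Lcp1, 4.29 for Nid1, 4.90 for Fabp3 and 3.78 for Dsp, so cells of lower share carried a large part of these 4 values too. Tfpi, the inhibitor of tissue factor, stood at 14.2, 394 and 168 CPM and Tmem37 at 22.4, 504 and 227 CPM; both were also low in the cells with no lineage, at 21.3 and 63.5 CPM.

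**Figure D3:**
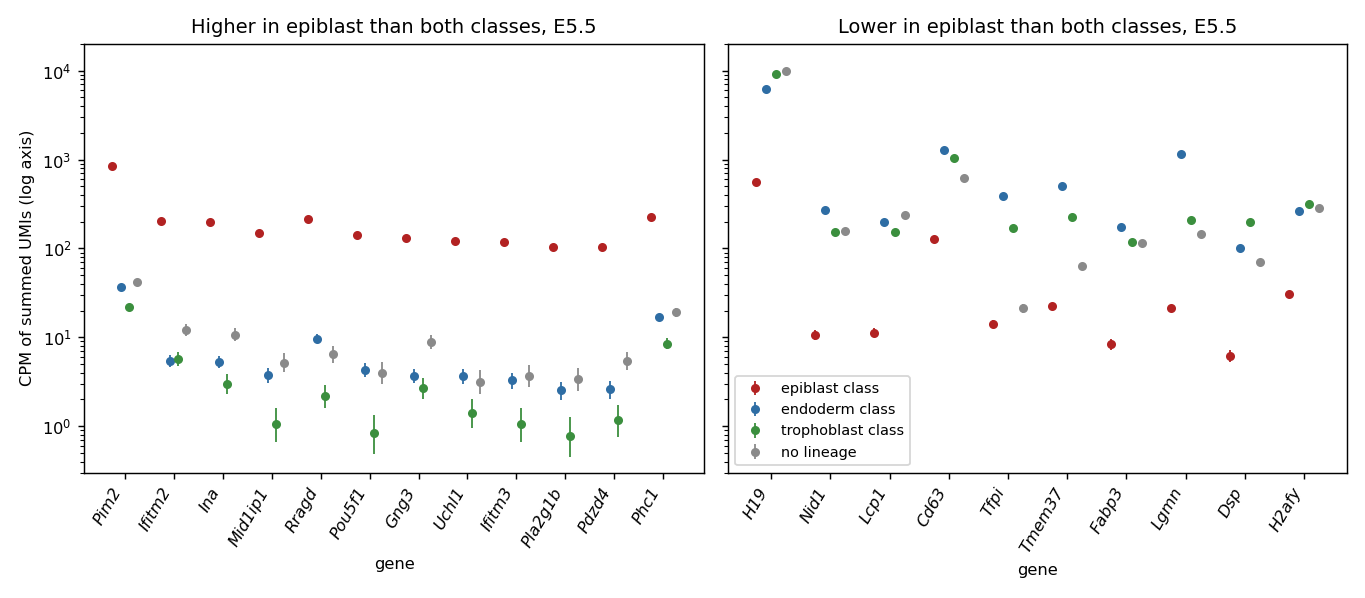
Level in CPM (log axis) of the 12 genes highest and the 10 genes lowest in epiblast relative to both classes, for the summed UMIs of epiblast, endoderm, trophoblast and unassigned cells; bars are exact 95% Poisson intervals, shorter than the symbol for most. In the left panel the epiblast points lie between 103 and 852 CPM and every other point at or below 42.0 CPM.

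Genes of the formative and primed states were high in epiblast cells. Of 19 tested, 12 were at least 2-fold higher than in endoderm, 18 than in trophoblast and 11 than in both, and 1 was lower than in endoderm. The medians were 1.52 and 2.58, and with 50 CPM added the first fell under 2-fold. Otx2, a homeobox factor that drives the exit from naive pluripotency, stood at 379 CPM in epiblast, 183 in endoderm and 3.16 in trophoblast cells. Its ratio to endoderm was 2.07-fold (2.0 to 2.14), at the edge of the 2-fold call. It had a UMI in 88.2% of epiblast but 35.5% of endoderm cells. Sall2, a zinc-finger factor, stood at 109, 7.37 and 1.80 CPM, and Sox11, an HMG-box factor, at 34.1, 0.887 and 0.195 CPM. Sox3 was high in epiblast (202 CPM) relative to endoderm (38.0) and trophoblast (25.4), but higher still in the cells with no lineage (329). Car4, a carbonic anhydrase often read in formative cells, was the member lower than in endoderm, at 399 against 1502 CPM, with 168 in trophoblast cells.

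Core pluripotency genes were divided by neighbour. Of 12, 5 were higher than in endoderm and 10 than in trophoblast, with medians of 0.73 and 1.77. Zscan10, a zinc-finger factor of pluripotent cells, stood at 123, 28.6 and 2.38 CPM in epiblast, endoderm and trophoblast cells, and Dppa4, a chromatin protein of pluripotent and germ cells, at 185, 19.7 and 35.8 CPM. Lin28a, which blocks let-7 maturation, and Sall4 were as high in endoderm as in epiblast. Lin28a stood at 392, 442 and 74.6 CPM and Sall4 at 376, 443 and 178 CPM. Tdh, threonine dehydrogenase, was at 10.1 CPM in epiblast and 77.5 in endoderm.

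Genes of naive pluripotency were mostly level or lower. None of the 14 tested was at least 2-fold higher in epiblast than in endoderm and 7 were lower; against trophoblast 2 were higher and 8 lower. The medians were -0.81 and -1.15, and with 50 CPM added the second fell under 2-fold. Klf4 and Klf5, Kruppel-like factors that hold the naive state, were low in epiblast cells: Klf4 stood at 12.5, 50.3 and 90.1 CPM in the 3 classes and Klf5 at 13.7, 103 and 79.9 CPM (8.35 CPM for Klf5 in epiblast cells of at least 80% marker share). Tfcp2l1 stood at 2.42, 33.9 and 25.2 CPM. The exceptions were Dppa5a, an RNA-binding protein of pluripotent cells, at 941, 485 and 193 CPM, and Dppa3, a guardian of maternal methylation marks, at 15.9, 19.4 and 0.778 CPM. Prdm14, Tcl1 and Nr5a2 were under 1 CPM in all 3 classes and were not tested.

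The methylation machinery was higher in epiblast for several members. Of 9 genes, 4 were at least 2-fold higher than in endoderm and 4 than in trophoblast, with 3 (Dnmt3a, Dnmt3b and Tet1) higher than in both. The medians were 1.0 and 0.95. The de novo methyltransferase Dnmt3a stood at 501, 132 and 48.6 CPM in epiblast, endoderm and trophoblast cells. Dnmt3l, their catalytically inactive partner, stood at 238, 101 and 118 CPM. The maintenance methyltransferase Dnmt1, at 162, 98.7 and 112 CPM, was under 2-fold in both comparisons. Among the enzymes that oxidise methylcytosine, Tet1 stood at 165, 37.5 and 35.3 CPM, Tet2 at 2.84, 8.08 and 20.3 CPM, and Tet3 at 19.6, 19.7 and 15.0 CPM. Tet1 was the member high in epiblast cells and Tet2 the member lower there than in trophoblast cells.

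Among Nodal ligands and their controls, 6 genes were tested. Nodal was equal in epiblast (49.6 CPM) and endoderm (48.2 CPM) and far lower in trophoblast cells (0.389 CPM). Its co-ligand Gdf3 was higher in epiblast than in both, at 49.2, 7.43 and 0.535 CPM. The antagonist Lefty1 stood at 38.5, 67.1 and 0.584 CPM. Cer1, an antagonist made by anterior visceral endoderm, stood at 0.740 CPM in epiblast and 78.7 in endoderm. Lefty2 was low, at 4.81 CPM in epiblast, 0.273 in endoderm and 0.0486 in trophoblast cells. The convertases that activate Nodal, Furin and Pcsk6, stood at 9.74 and 11.6 CPM in epiblast cells, below the 47.5 and 52.9 of trophoblast cells. Furin and Pcsk6 were thus higher in trophoblast than in epiblast, and Furin was also at least 2-fold lower in epiblast than in endoderm. Gdf3 was highest in epiblast, while Nodal was shared by epiblast and endoderm. Among 10 receptors and effectors, 1 was higher than in endoderm and 2 than in trophoblast, with medians of 0.00 and 0.01 (-0.19 and -0.10 under TMM scaling). The SMAD co-repressor Skil stood at 211, 86.9 and 76.4 CPM, and Foxh1, the DNA-binding partner of SMAD2, at 15.9, 10.6 and 0.243 CPM.

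FGF ligands other than Fgf4 and Fgf5 differed by class. Fgf15 stood at 23.6 CPM in epiblast, 0.682 in endoderm and 0.438 in trophoblast cells. Fgf8 and Fgf10 were instead endoderm genes, with 48.6 and 72.2 CPM in endoderm against 7.60 and 0.534 in epiblast cells. Of 13 receptors and feedback genes of ERK signalling, 4 were higher than in endoderm and 3 lower, and 8 were higher than in trophoblast and 1 lower. The medians were 0.15 (-0.03 under TMM scaling) and 1.29. The receptors differed from each other. Fgfr1 stood at 93.8, 12.7 and 37.7 CPM, Fgfr2 at 10.6, 21.7 and 135 CPM, and Fgfr3 at 0.452, 50.6 and 0.632 CPM in epiblast, endoderm and trophoblast cells, so each of these 3 receptors was highest in a different class. Fgfr2 was at 3.64 CPM in epiblast cells of at least 80% marker share. The ERK-induced genes Dusp6, Dusp4 and Etv5 were higher in epiblast than in both, Etv5 at 142, 34.4 and 8.56 CPM. In the cells with no lineage Dusp6 was at 112 CPM, close to its epiblast level of 118. When Utf1 and Pou3f1 left the marker set, the median against trophoblast fell to 0.56, under 2-fold.

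BMP genes were mostly level or lower in epiblast cells. None of 13 tested was at least 2-fold higher than in endoderm and 5 were lower, with a median of -0.88. Against trophoblast 3 were higher and 2 lower, with a median of 0.37. The ligand Bmp4 stood at 12.9 CPM in epiblast and 6.53 in the cells of at least 80% marker share. The receptor Bmpr1a was similar in all classes, at 140, 130 and 106 CPM. Of the ID genes, targets of BMP signalling that block bHLH factors, Id3 stood at 266, 237 and 21.5 CPM and Id1 at 50.6, 101 and 12.2 CPM. Id2 ran the other way, at 149, 329 and 764 CPM.

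Of 17 WNT pathway genes tested, 3 were higher and 7 lower than in endoderm, and 5 higher and 1 lower than in trophoblast, with medians of -0.11 and 0.37. Lef1, a nuclear effector of the pathway, was the only one at least 2-fold higher than in both classes, at 83.1 CPM in epiblast, 2.22 in endoderm and 0.632 in trophoblast cells. Tcf7l1, a repressor of WNT targets in pluripotent cells, stood at 359, 90 and 405 CPM. The receptor Fzd7 stood at 103, 67.5 and 5.88 CPM. The secreted inhibitors Dkk1, Sfrp5 and Frzb were endoderm genes, with 107, 91.6 and 49.4 CPM in endoderm against 1.07, 1.77 and 0.288 in epiblast cells. Sfrp1 stood at 59.7, 270 and 4.91 CPM. Wnt3, the ligand that starts gastrulation, was at 1.6 CPM in epiblast and 6.41 in endoderm, below the level tested.

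Most genes of later lineages were low, with exceptions on each list. In epiblast cells T (brachyury) stood at 1.11 CPM, Mixl1 at 0.781, Gsc at 0.616 and Evx1 at 0.288. Mixl1 and Gsc, usually read as primitive streak genes, were higher in endoderm cells, at 30.0 and 22.5 CPM, as were Lhx1 (1.36 against 191 CPM) and Foxa2 (0.781 against 93 CPM). Eomes, a factor of both streak and trophoblast, held most of the streak list's 80.7 CPM in epiblast cells, at 65.8 CPM (37.2 in cells of at least 80% marker share) against 242 in endoderm and 315 in trophoblast cells. Among anterior neural genes Sox1 stood at 0.699 CPM and Pax6 at 1.19 in epiblast, and Hesx1 at 0.616 against 33.5 in endoderm. The cytoskeletal genes of that list went the other way. Tuba1a, a tubulin abundant in neurons, stood at 202, 21.9 and 33.8 CPM and Nes, the intermediate filament nestin, at 32.0, 2.49 and 9.97 CPM. Of 7 germ cell genes tested, 3 (Ifitm3, Ifitm1 and Dazl) were at least 2-fold higher than in both classes. On the same list 1 was lower than in endoderm and 1 lower than in trophoblast. In cells of at least 80% marker share Ddx4 stood at 23.8 CPM in epiblast and 69.1 in endoderm, and Tfap2c at 6.21 in epiblast and 909 in trophoblast. Ifitm1 stood at 63.3, 1.77 and 0.535 CPM, Dazl at 25.5, 3.82 and 3.11 CPM, and Prdm1, an early factor of the germ line, at 3.21, 8.39 and 1.36 CPM.

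Genes of basement membrane proteins were mostly highest in the endoderm class, and genes for their receptors were divided. Of 15 genes, 9 were at least 2-fold lower in epiblast than in endoderm and 1 was higher, with a median of -1.92; against trophoblast 6 were higher and 3 lower, with a median of 0.08 (-0.06 under TMM scaling). The gene that was higher was Itga6, the alpha-6 subunit of laminin-binding integrins, at 118 CPM in epiblast, 29.5 in endoderm and 16.6 in trophoblast cells. The laminin chain genes Lama1 and Lamc1 stood at 378 and 852 CPM in endoderm, against 2.63 and 47.2 in epiblast cells. Col4a2 stood at 7.15 against 655 CPM. Lama5, another laminin chain, was similar in epiblast (51.3 CPM) and endoderm (62.6 CPM) and lower in trophoblast (17.6 CPM). Fn1, fibronectin, stood at 39.6, 39.2 and 1.31 CPM.

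Genes of apical polarity and the lumen were mostly not higher in epiblast cells. Of 19, 1 was higher and 8 lower than in endoderm, with a median of -0.71; 1 was higher and 4 lower than in trophoblast, with a median of -0.11. Podxl, the sialomucin podocalyxin that lines the cavity, stood at 92.2, 469 and 155 CPM in epiblast, endoderm and trophoblast cells, and Ezr, the cortical linker ezrin, at 396, 903 and 1728 CPM. Cldn6, a tight junction claudin, stood at 334, 1034 and 84.9 CPM. The adhesion genes Cdh1 and Epcam differed less: Cdh1 was at 267, 180 and 288 CPM, and Epcam at 707, 350 and 450 CPM. Pard3 and Prkci of the PAR complex were under 2-fold in every comparison.

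Programs of the other tissues were low. All 16 genes of apical endocytosis and lipoproteins were at least 2-fold lower in epiblast than in endoderm, with a median of -5.58, and 1 was higher and 1 lower than in trophoblast. Lrp2, the endocytic receptor megalin, was the one higher than in trophoblast, at 80 CPM against 1222 in endoderm and 6.71 in trophoblast cells. It was not the only member detected. In epiblast cells of at least 80% marker share Apoe stood at 94.5 CPM, Lrp2 at 82.7 and Dab2 at 39.5. Of 14 trophoblast regulators 10 were lower than in trophoblast, with a median of -1.82. Tfap2c stood at 15.6 against 792 CPM, and at 6.21 CPM in epiblast cells of at least 80% marker share. Keratins and membrane-linked cytoskeletal genes were lower too, 11 of 14 against trophoblast with a median of -3.46. Krt8 stood at 6.53, 67.1 and 249 CPM in epiblast, endoderm and trophoblast cells and Anxa2 at 9.08, 29.4 and 529 CPM (4.34 CPM in epiblast cells of at least 80% marker share). Higher in epiblast, as were the intermediate filament genes Ina and Nes above, was Vim, vimentin, at 56.6, 8.53 and 3.31 CPM.

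Some genes were shared with a single neighbour. Epiblast and trophoblast were both at least 2-fold above endoderm for 94 genes (1.0%), and epiblast and endoderm both above trophoblast for 244 (2.6%). Those named for trophoblast were Bcat1, Marcks, Crip2, Akap12, Tcf7l1 and Tfrc. Akap12, a scaffold of protein kinases, stood at 454, 49.6 and 255 CPM in epiblast, endoderm and trophoblast cells, and Marcks, a membrane-actin linker, at 370, 54.9 and 395 CPM. Bcat1, a branched-chain aminotransferase, stood at 147, 15.2 and 374 CPM. The transferrin receptor Tfrc stood at 113, 23.4 and 323 CPM, and the LIM protein Crip2 at 128, 18.9 and 225 CPM. In the cells with no lineage Akap12 and Marcks were lower, at 70.3 and 92.9 CPM. Bcat1, Crip2, Tcf7l1 and Tfrc stood at 411, 186, 215 and 283 CPM there. Those named for endoderm were Mdk, Otx2, Cd24a, Fgf5, Gja1 and Tceal8. Mdk, the growth factor midkine, stood at 789, 828 and 23.2 CPM. Gja1, the gap junction protein connexin 43, stood at 154, 460 and 5.45 CPM, and Cd24a, a surface glycoprotein, at 186, 237 and 5.06 CPM. Tceal8 stood at 187, 206 and 9.63 CPM. Among these 6, Otx2 had the widest gap to trophoblast, at 120-fold (94.0 to 156).

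In glycolysis most genes were level. Of 18, 2 were higher and 2 lower than in endoderm, and 1 higher and 2 lower than in trophoblast, with medians of 0.31 and -0.22. The exception against both was Ldhb, the heart-type lactate dehydrogenase subunit, at 112, 10.2 and 9.87 CPM; its partner Ldha stood at 1583, 1346 and 1567 CPM. Of the transporters, Slc2a1, a glucose transporter, was level with endoderm at 234 and 244 CPM and lower than in trophoblast (612 CPM). Slc2a3, another glucose transporter, stood at 95.2 CPM in epiblast and 1345 in endoderm, and Slc16a1, a monocarboxylate transporter, at 182 and 1821 CPM.

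Several S-phase genes were higher in epiblast than in endoderm cells. Of 18 S-phase genes 7 were at least 2-fold higher than in endoderm and 2 than in trophoblast, none was lower, and the medians were 0.87 and 0.55. Hells, a chromatin remodeller needed for DNA methylation, was higher than in both, at 674, 173 and 162 CPM in epiblast, endoderm and trophoblast cells. Mcm2 of the replicative helicase stood at 388, 163 and 211 CPM. None of 20 G2 and M-phase genes passed 2-fold in either direction, with medians of 0.27 and 0.07 (-0.09 against trophoblast under TMM scaling). Ccnd1, cyclin D1, stood at 246, 9.07 and 28.6 CPM, and Ccne1, cyclin E1, at 382, 114 and 381 CPM. Ribosome biogenesis genes had medians of 0.71 and 0.10 (-0.06 against trophoblast under TMM scaling), and 1 of 15 passed 2-fold, against endoderm.

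Genes of p53 and apoptosis were often higher in epiblast than in endoderm cells. Of 12 tested, 7 were at least 2-fold higher than in endoderm and 3 than in trophoblast, none was lower, and the medians were 1.24 and 0.71; with 50 CPM added the first fell under 2-fold. Trp53 and Pmaip1 were among those higher than in both. Trp53, which encodes p53, stood at 329, 123 and 150 CPM. Pmaip1, the BH3-only death factor NOXA, stood at 172, 22.0 and 1.75 CPM. The anti-apoptotic Mcl1 was level at 368, 355 and 409 CPM.

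Imprinted genes differed in both directions. Of 15 genes on the list, 2 were higher and 7 lower than in endoderm, and 6 were higher and 5 lower than in trophoblast, with medians of -0.55 and -0.23. Snrpn, a paternally expressed splicing protein gene, stood at 285, 13.1 and 55.3 CPM and Nnat, neuronatin, at 28.5, 1.64 and 0.389 CPM; both were higher in epiblast than in both neighbours. Igf2, the paternally expressed growth factor beside H19, stood at 44.9, 238 and 928 CPM, and Peg10 at 22.6, 191 and 129 CPM. In the cells of at least 80% marker share Igf2 was at 15.6 and Peg10 at 11.2 CPM. Phlda2, a maternally expressed brake on placental growth, stood at 52.8, 48.2 and 1554 CPM. Reads of Xist, the RNA that silences the X chromosome, stood at 109, 97.4 and 44.5 CPM, and cannot be told apart from antisense Tsix reads because no strand setting is given in the sources used here. On the X chromosome lay 31 of 469 genes higher in epiblast than in both classes (6.61%) and 28 of 327 lower ones (8.56%), against 345 of all 9340 tested genes with a known chromosome (3.69%).

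Markers of maternal tissues were low in epiblast cells but not at 0. The 8 decidual stroma markers summed to 20.2 CPM (18.5 to 22.1) in epiblast, 1.57 in endoderm and 2.48 in trophoblast cells. Dcn, decorin, held 11.8 CPM of this in epiblast cells and Col1a2 5.01, while Prl8a2 was at 0 UMIs, which allows up to 0.123 CPM. The 8 immune markers summed to 3.99, 2.59 and 39.4 CPM and the 7 erythroid markers to 0.863, 0.102 and 1.80 CPM. Ptprc, the pan-leukocyte marker, stood at 0.205 CPM in epiblast cells. The 6 uterine epithelium markers in the files summed to 56.7 CPM in epiblast, 27.3 in endoderm and 186 in trophoblast cells, and Wfdc2 and Msx1 held 30.9 and 19.8 CPM of this in epiblast cells. The part of maternal RNA in the epiblast values was not tested.

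Epiblast cells were compared among themselves after each was thinned to 3000 UMIs, which kept 2731 and left out 28. The variance-to-mean ratio, 1 for pure counting noise, had a median of 1.05 over 1019 genes. H19 had the highest, 21.9, and 79.1% of its thinned UMIs lay in the 10% of cells with the most. Mt2 and Mt1, metallothioneins that bind zinc and copper, followed at 4.32 and 2.77, then Tmsb4x, thymosin beta 4, at 2.03. Ube2c and Top2a, which peak around mitosis, stood at 2.0 and 1.74. The remaining genes of the top 10 were Pim2 at 1.75, Id3 at 1.71, Dnmt3b at 1.70 and Hmga1 at 1.69. With thinning to 5000 UMIs all 10 ratios were higher, at 32.4 for H19 and 1.96 for Dnmt3b. The ratio thus depends on the UMIs counted, and the order does not compare genes of unlike mean.

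The leading values depended on the cells near the threshold. Among the 2403 cells with a marker share of at least 80%, a choice made after the data were seen, H19 stood at 4.44, Tmsb4x and Dnmt3b left the top 10, and Mt2 led at 4.52. Mt1 and Mt2 varied together, with a Pearson r of 0.59 over these cells and 0.58 over all 2731. Ube2c and Top2a gave an r of 0.29 in both sets of cells. Dnmt3b and H19 gave -0.47 over all 2731 cells but -0.07 over the 2403 cells, so that relation rests on cells of lower share. These correlations describe cells of 1 library that share a pool and a run. Among other epiblast genes the ratio was 1.49 for Slc7a3, 1.47 for Sox3, 1.45 for Tdgf1 and 1.19 for Otx2. Slc7a3 and Tdgf1 are marker genes of the rule, so the choice of cells shapes their spread. From shares of 60 to 65% to shares of 90 to 100%, Slc7a3 went from 78.0 to 491 CPM and Tdgf1 from 53.1 to 387 CPM. Pou5f1 at 1.06 and Nodal at 1.09 had means under 0.5 UMI, where the ratio lies near 1 for any gene with few UMIs. A UMI of Nodal was found in 14.0% of thinned epiblast, 12.4% of endoderm and 0.140% of trophoblast cells.

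**Figure D4:**
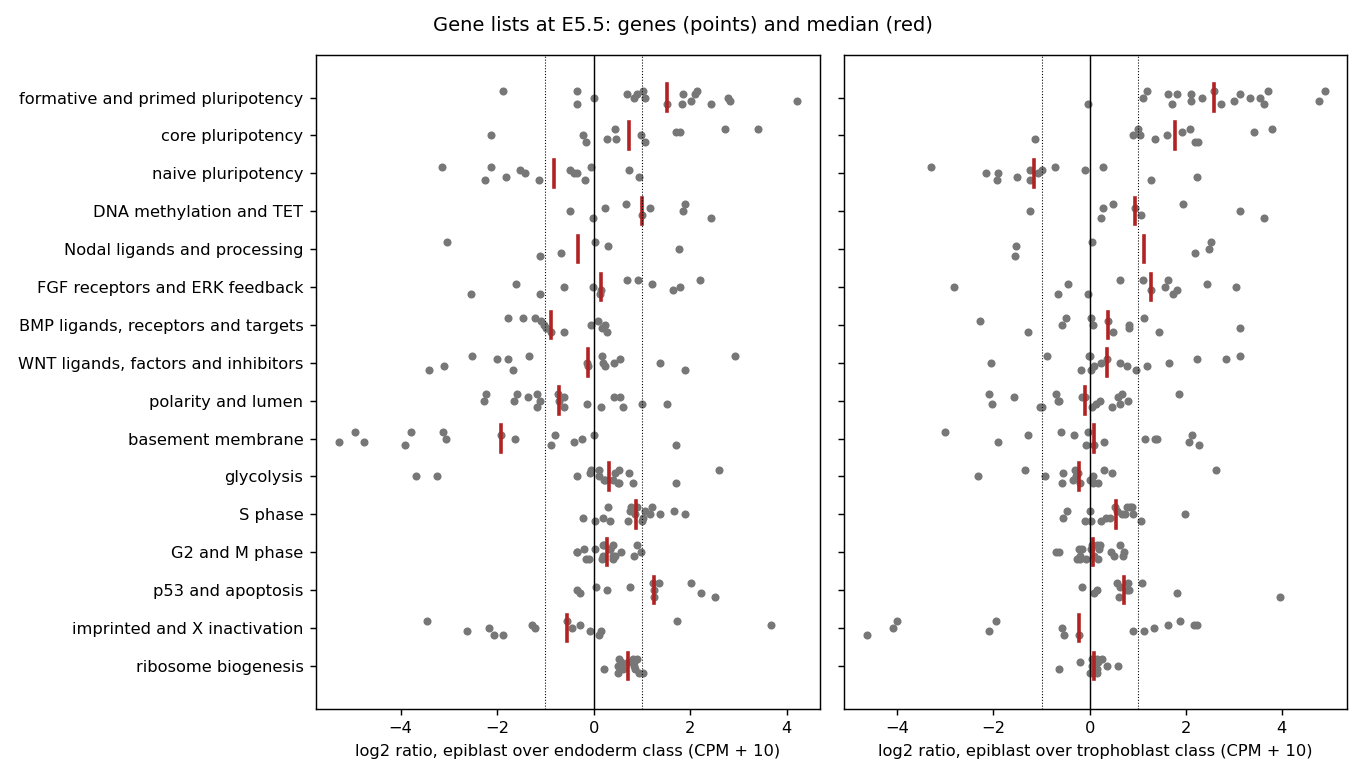
Log2 ratios (10 CPM added) of the tested members of 16 gene lists, epiblast over endoderm on the left and over trophoblast on the right; each point is a gene, red bars are medians and dotted lines mark 2-fold. Formative genes have medians of 1.52 and 2.58, naive genes -0.81 and -1.15, and mitotic genes 0.27 and 0.07.

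The 3 other libraries show which of these contrasts were present outside E5.5. They are other stages and not replicates, and no difference between libraries was tested. In EDG7.5, 651 of 10026 genes (6.49%) were at least 2-fold higher in epiblast-class cells than in both other classes and 212 (2.11%) lower. In EDG9.5 the numbers were 712 of 10031 (7.1%) and 234 (2.33%), and in Reactivated 774 of 9306 (8.32%) and 395 (4.24%). Of the 475 genes higher at E5.5, 335 were tested in EDG7.5 and 105 of those (31.3%) were also higher there, 16.1% of the genes higher in that library. In EDG9.5 it was 113 of 334 (33.8% and 15.9%), and in Reactivated 244 of 369 (66.1% and 31.5%).

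Of the 12 genes named as highest, 3 (Ifitm2, Ifitm3 and Phc1) passed 2-fold against both classes in EDG7.5, 2 (Ifitm2 and Phc1) in EDG9.5, and 11, all but Rragd, in Reactivated. In epiblast-class cells Pim2 was at 34.1 CPM for EDG7.5, 23.3 for EDG9.5, 348 for Reactivated, and 852 for E5.5. Ina stood at 8.70, 8.67, 85.7 and 197 CPM and Pla2g1b at 5.91, 7.49, 87.7 and 105 CPM in the same order. These 3 genes were low in EDG7.5 and EDG9.5 and high in the other 2 libraries. Ifitm2 was high in all 4, at 223, 255, 566 and 204 CPM. Pou5f1 was at 57.0 CPM in EDG7.5 epiblast-class cells, with 66.2 in endoderm-class cells of that library, and so did not separate those classes there.

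Other epiblast genes also differed among the libraries. Dnmt3b stood at 119, 96.2, 1434 and 3105 CPM in epiblast-class cells in the same library order, and Pou3f1 at 14.3, 17.3, 204 and 345 CPM. In EDG7.5 and EDG9.5 neither gene was 2-fold higher in epiblast than in endoderm. Nanog ran the other way, at 810, 757, 90 and 29.0 CPM, and so did Sox2, at 1363, 1795, 533 and 117 CPM. Pou3f1, Nanog, Sox2, Utf1 and Tdgf1 belong to the marker set that chose the epiblast-class cells in each library. Their levels are therefore values used in that choice, while Dnmt3b was not used. At E5.5 Utf1 made up 1381 of the 2741 CPM of the epiblast marker set, whereas it stood at 344 CPM in both EDG7.5 and EDG9.5, where Tdgf1 stood at 2476 and 3241 CPM. Among the 10 genes named as lowest, 2 were at least 2-fold lower than both classes in EDG7.5, 4 in EDG9.5 and 8 in Reactivated. Lcp1 and Lgmn were lower in all 4 libraries.

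**Figure D5:**
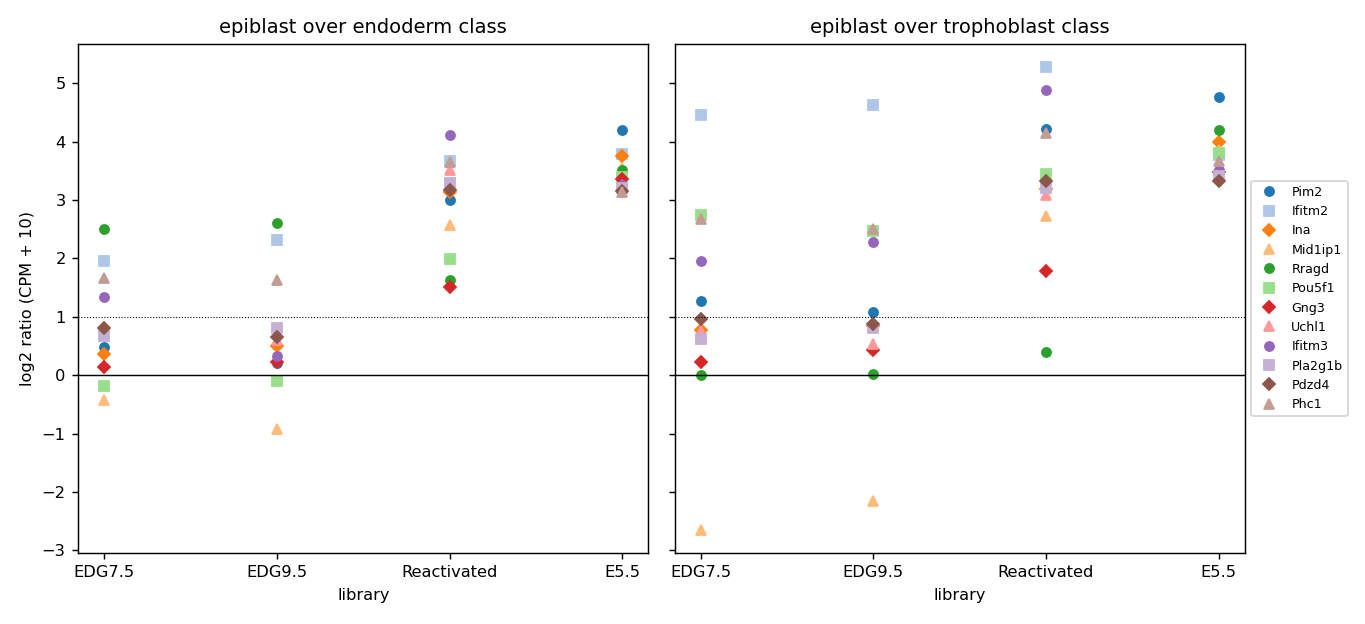
Log2 ratio (10 CPM added) of epiblast-class over endoderm-class cells on the left and over trophoblast-class cells on the right, for the 12 genes named as highest at E5.5, in the 4 libraries; each symbol is a gene and the dotted line marks 2-fold. In E5.5 all lie above 3, in Reactivated 11 pass 2-fold in both panels, and in EDG7.5 and EDG9.5 Mid1ip1 is at -2.65 and -2.16 against trophoblast.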

How the data were processed

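The deposited files hold whole-number counts per gene and barcode, 1 file per library. Per the submitters' processing notes, the authors worked with mm10 and with STAR 2.7.1a, featureCounts 1.6.4 from Subread, and UMI-tools 1.0.1. The last of these tools is why a count is taken here as a UMI. No source used here gives the settings, gene annotation, strand or how barcodes were picked.

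Cells, marker lists and genes were chosen with earlier results of these data known. Counts were summed per class and scaled to CPM. No test was run, since cells of 1 library of pooled embryos are not replicates. Genes named are the 12 highest and 10 lowest in epiblast by the smaller of both log2 ratios, 6 shared with trophoblast and 6 shared with endoderm, all with at least 100 CPM where high, plus marker genes, members of the lists described by role, and the 10 genes of highest variance-to-mean ratio (mean of at least 0.5 UMI). Ribosomal protein, mitochondrially encoded, predicted and clone-named genes were left out. The ratio intervals and 2-fold calls were tested on simulated class sums. The lineage rule and the variance-to-mean step were not tested in this way. Alternatives changed the UMI minimum, marker share, set UMIs, mitochondrial limit, doublets, scaling, thinning, added CPM and gene minimum. Tools were Python 3.11.15, numpy 2.4.6, scipy 1.17.1, pandas 2.3.3, scanpy 1.11.5 and edgeR 4.0.16.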

Additional observations from a re-analysis of the deposited data

Results flagged for a closer look

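Some genes named at E5.5 lay at least 2-fold the opposite way in another library by the same marker rule. These differences between libraries were not tested, since each stage had 1 library.

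Of genes shared with trophoblast at E5.5, Bcat1 had a log2 ratio of epiblast over trophoblast of -1.29 at E5.5 but 5.18 in EDG7.5 and 4.53 in EDG9.5, with a trophoblast level of 374 CPM at E5.5 and of 2.68 and 12.1 CPM there. Tfrc went from -1.43 at E5.5 to 2.60 in EDG7.5 and 2.30 in EDG9.5. Against endoderm, Crip2 was 2.26 at E5.5 and -1.25 and -1.72 in EDG7.5 and EDG9.5, and Marcks was 2.55 at E5.5 and -1.18 and -1.20.

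Of the genes highest in epiblast at E5.5, Mid1ip1 had a log2 ratio over trophoblast of 3.86 at E5.5 and of -2.65 in EDG7.5 and -2.16 in EDG9.5. Among the genes lowest at E5.5, Nid1 was -3.00 against trophoblast at E5.5 and 1.64 and 1.45 in EDG7.5 and EDG9.5. Tfpi was -2.88 against trophoblast at E5.5 and 2.80, 2.48 and 2.88 in EDG7.5, EDG9.5 and Reactivated. H19 against endoderm was -3.46 at E5.5 and 1.67 in EDG7.5, where its levels were 113 CPM in epiblast-class and 28.4 in endoderm-class cells.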

How the results depend on the processing

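The amount added before the log set the counts most: genes higher in epiblast than in both classes numbered 475 as reported, 741 with 1 CPM added, 119 with 50 CPM added and 232 among genes with at least 50 CPM in 1 class, and genes lower numbered 327, 667 with 1 CPM added and 75 with 50 CPM added. TMM scaling gave 384 higher and 410 lower, so 48.4% of the called genes were higher in place of 59.2%. The epiblast share of 34.2% became 27.5% with a marker share of at least 90% and 24.9% without Utf1 and Pou3f1 in the set, an alternative added after the data were seen. The other settings kept both counts within 1.5 times. Of 1088 values of named genes under the alternatives none changed sign while past 2-fold. Under 2-fold fell 4 values, all Otx2 over endoderm (0.81 to 0.93 with 50 CPM added, TMM scaling, thinning to 1000 UMIs or means over cells). These genes were picked for large ratios, and the 1088 include ratios that were not past 2-fold as reported. By more than counting error 326 values moved, with 48 of 68 at a marker share of at least 90%. Of 1016 list medians 22 fell under 2-fold, and the 1016 include medians that were not past 2-fold as reported. With 50 CPM added 11 were lost. Among these were the formative and basement membrane lists over endoderm and the naive and germ cell lists over trophoblast. Depth limits genes under 10 CPM, and 1 library leaves the spread between embryos unknown. No paired analysis was possible because each group had 1 library.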

Other observations

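Amino acid and one-carbon genes showed a mixed pattern in epiblast cells. Of 15 tested, 3 were at least 2-fold higher than in endoderm and none lower, and 1 was higher and 3 lower than in trophoblast, with medians of 0.35 and -0.48. Mthfd2, a mitochondrial folate enzyme, stood at 129 CPM in epiblast, 35.2 in endoderm and 240 in trophoblast cells. Psat1 of serine synthesis stood at 296, 110 and 720 CPM, and Asns, asparagine synthetase, at 97.0, 117 and 345 CPM. Slc7a7, an exporter of cationic amino acids, stood at 64.4, 129 and 8.75 CPM.

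Of 10 cell cycle regulators tested, 2 were higher than in endoderm, and 3 were higher and 2 lower than in trophoblast. The growth factor-driven gene Myc stood at 72.8, 12.3 and 128 CPM, and its relative Mycl at 63.0, 30.0 and 9.39 CPM. Cdkn1c, an imprinted inhibitor of cyclin-dependent kinases, stood at 56.3, 87.1 and 247 CPM. All 5 placental secreted genes tested were at least 2-fold lower in epiblast than in trophoblast, with a median of -2.58. The 6 endothelium markers in the files summed to 27.2 CPM in epiblast and 372 in trophoblast cells, of which Cdh5 was 0.945 and 255 CPM. The part of endothelial RNA in the values of these classes was not tested.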
